A study of Mus musculus with 16 samples.

Results

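The lysosomal genes described here are 45 mouse genes for cathepsins and other lysosomal peptidases, glycosidases, lipid hydrolases, lysosomal membrane and transport proteins, and the subunits and accessory proteins of the vacuolar proton pump. Members were matched by symbol to a list of names drawn up with earlier results of these data known. Of the 25562 genes in the count table, all 45 were present, and 43 were among the 15541 genes that passed the filter on low counts and were tested. The 2 untested genes were Ctsk and Atp6v0d2. In the table of accessible regions, 113 of 40796 regions carried the identifier of a member, and every member had at least 1.

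The study compared monocytes sorted by their level of neuropilin-1 (Nrp1, a co-receptor for semaphorins and vascular endothelial growth factor) from the spleens of wild type neonatal mice (C57BL/6J for RNA and C57BL/6 for open chromatin), 7 days old, for which the labels name no treatment. RNA was read from 3 Nrp1 high and 3 Nrp1 low libraries of 80000 cells each. Open chromatin was read by ATAC-seq, in which a transposase inserts adapters into accessible DNA, from 5 Nrp1 high and 5 Nrp1 low libraries of 50000 cells each. The labels call the cells myeloid derived suppressor cells where the protocol calls them monocytes, mention pooled RNA, and leave unsaid which animals each library holds. The p-values therefore reflect how far these libraries spread, and part of that spread may be technical. Total counts lay between 28440098 and 31428419 in Nrp1 high and between 23395363 and 35127433 in Nrp1 low RNA libraries.

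The sorting label was checked first. Nrp1 itself stood at 97.3, 89.8 and 111.4 CPM (counts scaled to a common library size by the trimmed mean of M values, TMM) in Nrp1 high replicates 1, 2 and 3, against 20.1, 57.8 and 41.5 CPM in Nrp1 low replicates 1, 2 and 3. The groups did not overlap, and the log2 fold change, Nrp1 high minus Nrp1 low, was 1.32 ± 0.36 (standard error, SE, as for all log2 fold changes here), with an adjusted p of 0.259 by edgeR's quasi-likelihood test and 0.0218 by DESeq2. Calls of marker genes below are by edgeR unless another tool is named. The 10 monocyte markers summed to 6397 to 7723 CPM in Nrp1 high, against 3758 to 5844 CPM in Nrp1 low. This sum weighs Fn1 heavily, at 2806, 2169 and 2957 CPM in Nrp1 high replicates 1, 2 and 3, against 293, 1969 and 1234 CPM in Nrp1 low. By gene, 6 of the 10 lay above and 4 below 0, and 5 overlapped between the fractions. EdgeR and limma-voom called none of the 10, while DESeq2 called 3, with F13a1 higher and Cd14 and Nr4a1 lower. Markers of some other cells moved with the comparison. The 12 neutrophil and granule markers summed to 6672 to 7689 CPM in Nrp1 high, against 41195 to 70167 CPM in Nrp1 low, with 7 of 12 called lower (10 by DESeq2). This sum weighs S100a8 and S100a9 heavily, with means of 3636 and 1164 CPM in Nrp1 high, against 24256 and 9244 CPM in Nrp1 low. Ly6g, Mmp8, Mmp9, Csf3r and Retnlg were not called by edgeR. The 7 primary granule and progenitor markers summed to 2736 to 4914 CPM in Nrp1 high, against 11860 to 18542 CPM in Nrp1 low, with 6 of 7 called lower (7 by DESeq2). The 12 macrophage markers summed to 378 to 435 CPM in Nrp1 high, against 621 to 724 CPM in Nrp1 low. EdgeR called none of these 12, limma-voom 1 (Vcam1) and DESeq2 5 (Vcam1, C1qb, C1qc, Slc40a1 and Marco), all lower. The 6 platelet markers summed to 9.43 to 14.95 CPM in Nrp1 high, against 51.1 to 61.9 CPM in Nrp1 low, with 3 of 6 called lower (4 by DESeq2 and 1 by limma-voom). The 6 NK cell markers summed to 47.7 to 77.5 CPM in Nrp1 high, against 158.7 to 216 CPM in Nrp1 low, with 1 of 6 called lower. No B cell, T cell, dendritic cell or erythroid marker was called by edgeR, DESeq2 or limma-voom. Of all these markers, Cd4 and Prf1 were at 0, in 1 Nrp1 low library each. The part of these cells in the lysosomal values was not tested. In bulk samples, fewer cells of a type and less RNA per cell cannot be told apart.

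Lysosomes are acidic organelles in which soluble hydrolases degrade proteins, glycans and lipids delivered by endocytosis, phagocytosis and autophagy. The acid is made by the vacuolar H+-ATPase (V-ATPase), whose cytosolic V1 sector hydrolyses ATP and whose membrane-embedded V0 sector carries the protons into the lumen. Cathepsins are made as inactive precursors that mature in this acid. Many lysosomal genes carry in their promoter an E-box, the CLEAR element, to which the transcription factors TFEB and TFE3 bind. In monocytes and macrophages, lysosomal proteases also process antigen and degrade ingested microbes.

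Promoter windows from 250 bases before to 50 after the transcript start were available for 36 of the 45 members (RefSeq, GRCm38.p6). Asah1, Atp6v0d2, Atp6v1b2, Atp6v1c1, Atp6v1h, Ctsb, Ctse, Ctsh and Npc1 had no window. The palindrome TCACGTGA, read on both strands, was held by 6 of 36 members (16.7%), against 304 of 27025 genes with a window (1.12%) and 226 of the 10589 of these that were tested in RNA (2.13%). Its 7-base form TCACGTG, which lies inside the palindrome, was held on either strand by 12 of 36 (33.3%), against 4.29% of all genes and 6.83% of tested genes. The core CACGTG, which lies inside both, was held by 13 of 36 (36.1%), against 8.09% of all and 11.4% of tested genes. The 6 members with the palindrome were Ctsa, Ctsd, Mcoln1, Gla, Atp6v0d1 and Atp6v1a. The stretches around it are shown for the 5 of these 6 whose transcript start lay in an accessible region, since the RNA values below are set against them. Capitals mark the palindrome, and each stretch is written 5′ to 3′ along the gene's strand.
Atp6v0d1 (chr8:105566035-105566094, minus strand): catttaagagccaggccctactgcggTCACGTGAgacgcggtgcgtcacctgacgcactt
Ctsd (chr7:142387893-142387952, minus strand): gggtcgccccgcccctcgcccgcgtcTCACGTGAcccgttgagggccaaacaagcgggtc
Atp6v1a (chr16:44139358-44139417, minus strand): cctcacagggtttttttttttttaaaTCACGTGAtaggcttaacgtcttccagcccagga
Gla (chrX:134601200-134601255, minus strand): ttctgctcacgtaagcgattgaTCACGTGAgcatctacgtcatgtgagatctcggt
Mcoln1 (chr8:3500447-3500506, plus strand): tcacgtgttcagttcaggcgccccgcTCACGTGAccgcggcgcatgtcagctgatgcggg
In Atp6v0d1 the palindrome began 4 bases before the transcript start, in Mcoln1 46, in Ctsd 99, in Atp6v1a 132 and in Gla 228 bases before it. Gla held 2 palindromes, of which the upstream one is shown. All 5 lay inside an accessible region, and none of these 5 regions was called in the authors' deposited table, where their log2 folds were 0.02 for Atp6v0d1, 0.01 for Ctsd, 0.19 for Atp6v1a, 0.28 for Gla and -0.35 for Mcoln1. A match describes these letters and does not show that a factor binds there.

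**Figure D1:**
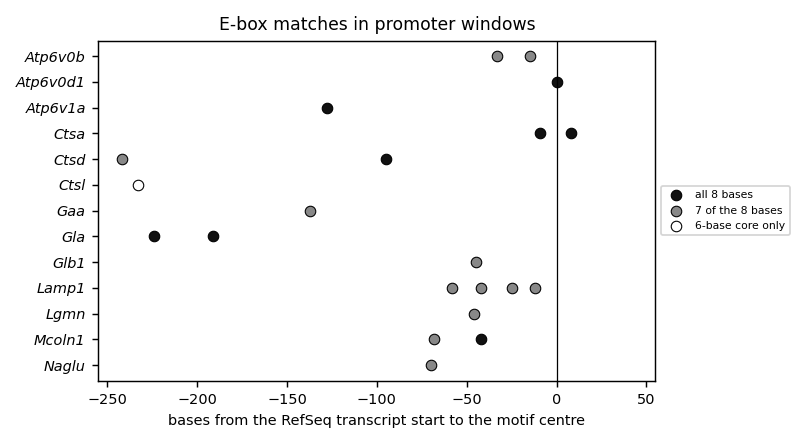
Positions of E-box matches in the promoter windows of the 13 members that held the core, in bases from the RefSeq transcript start to the centre of the match. Filled black points are the full palindrome, grey points its 7-base form and open points the core alone; Lamp1 held 4 matches of the 7-base form within 58 bases of its start.

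Across all members, no lysosomal gene passed the edgeR threshold, an adjusted p under 0.05, in either direction. The background is 0.00643% of tested genes called higher in Nrp1 high (1 gene) and 0.676% called lower (105 genes), by edgeR's quasi-likelihood test with Benjamini-Hochberg adjustment. At an unadjusted p under 0.05, 5 of 43 members (11.6%) were below 0 and 1 (2.33%) above, against 6.72% and 4.5% of all tested genes. The 5 below 0 became 15 without Nrp1 high replicate 2, 13 without Nrp1 low replicate 2, 3 without Nrp1 high replicate 1, Nrp1 low replicate 1 or Nrp1 low replicate 3, and 2 without Nrp1 high replicate 3. The 1 above 0 became 4 without Nrp1 low replicate 2, and 0 without Nrp1 high replicate 1, Nrp1 low replicate 1 or Nrp1 low replicate 3. For these refits the share of all tested genes at this threshold was not computed, so the changed counts have no background. DESeq2 called 1 member, Neu1, lower, against 2.1% of genes called lower and 0.496% called higher, and limma-voom called none. The log2 fold change was below 0 in 33 of the 43 members (76.7%), against 49.4% of all tested genes, and its median was -0.28, against 0.01 over all tested genes. All 3 Nrp1 high libraries lay below all 3 Nrp1 low libraries in 8 members (18.6%), against 10.8% of all tested genes. They lay above in 1 member (2.33%), against 9.51% of all tested genes. The 8 were Ctsd, Ctse, Tpp1, Man2b1, Neu1, Atp6v1d, Atp6v1h and Atp6ap2, and the 1 was Atp6v0a1.

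**Figure D2:**
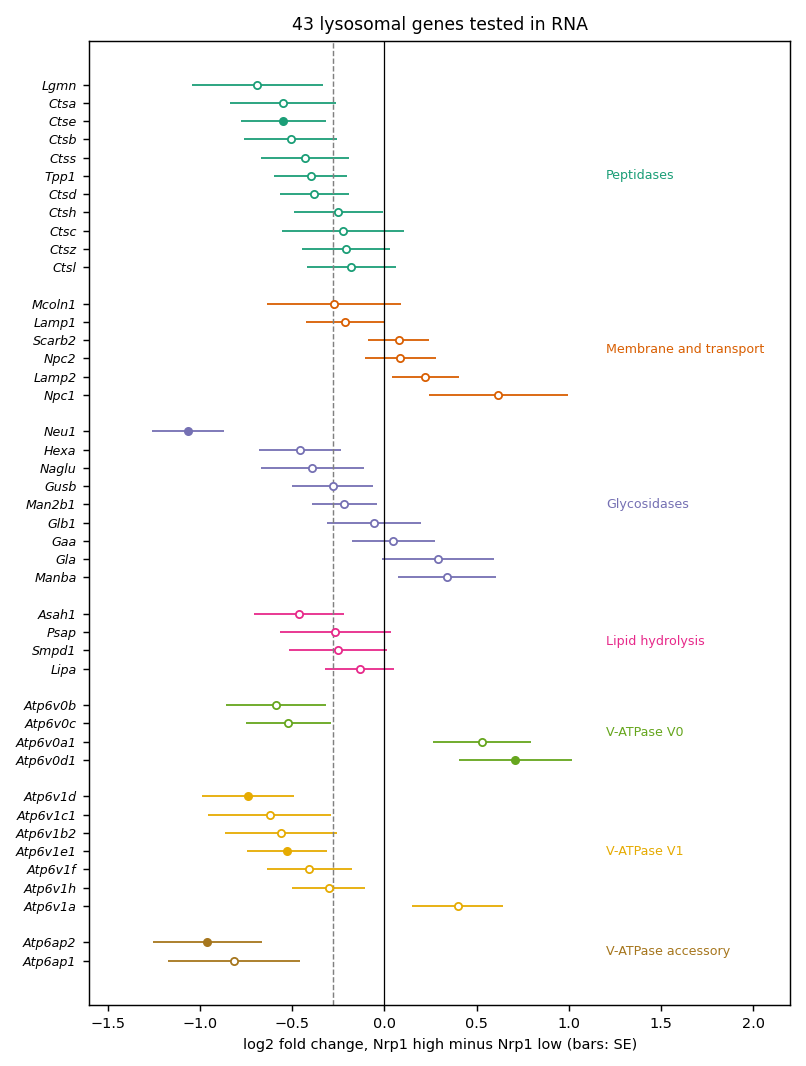
Log2 fold change, Nrp1 high minus Nrp1 low, of the 43 tested members by role class, with SE as bars; filled points have an unadjusted p under 0.05, the dashed line is the members' median of -0.28. All 11 peptidases lie left of 0, and Neu1 is farthest left at -1.07; the V0 subunits lie on both sides.

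The members' counts also differed between libraries of 1 fraction. Summed over the members, the level was 13967, 18999 and 14566 CPM in Nrp1 high replicates 1, 2 and 3, against 24701, 16382 and 18654 CPM in Nrp1 low replicates 1, 2 and 3. The fractions overlapped, because Nrp1 high replicate 2 lay above Nrp1 low replicates 2 and 3. Nrp1 low replicate 1 held the highest value of the 6 libraries in 29 of 43 members, and Nrp1 high replicate 1 the lowest in 23. For these counts over 6 libraries the share of all tested genes was not computed. Within its own fraction, Nrp1 high replicate 2 was highest in 30 of 43 members, where it was highest in 38.7% of all tested genes, and Nrp1 low replicate 1 was highest in 31 of 43, where it was highest in 35.8% of all tested genes. Mitochondrially encoded genes took 3.01, 1.29 and 2.37% of counts in Nrp1 high replicates 1, 2 and 3, and 0.784, 1.57 and 1.11% in Nrp1 low replicates 1, 2 and 3, and their part in this pattern was not tested. Without Nrp1 low replicate 1, 28 of the same 43 members lay below 0 and their median was -0.18, and without Nrp1 high replicate 2 34 did and their median was -0.43.

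**Figure D3:**
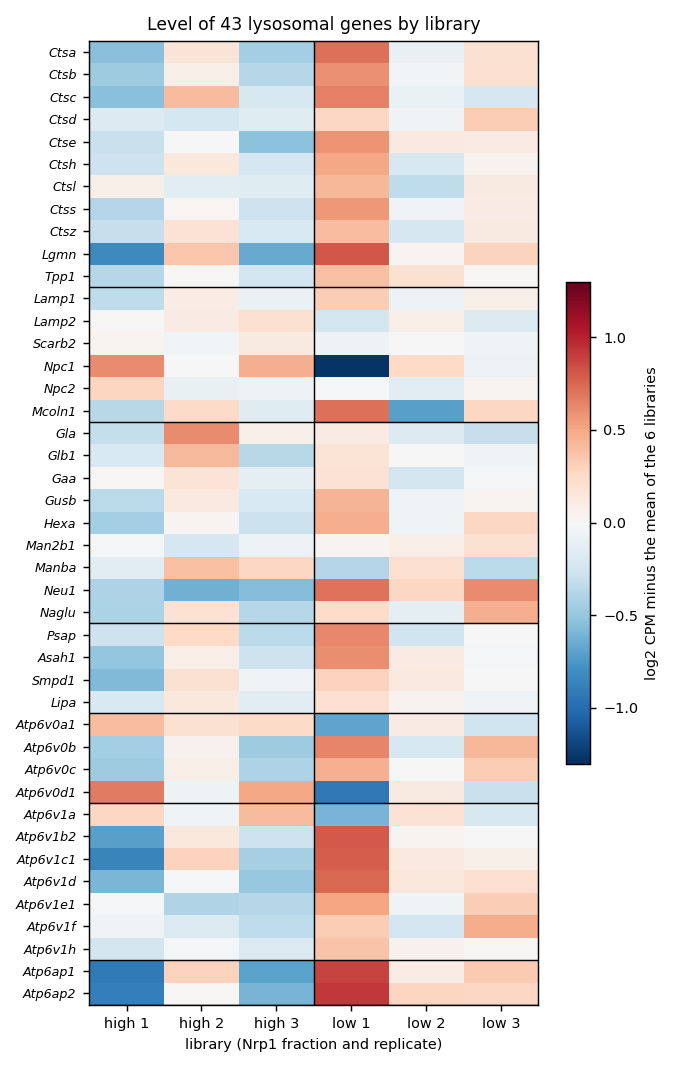
Level of each of the 43 tested members in each of the 6 RNA libraries, as log2 CPM minus the mean over the 6 libraries (red above, blue below), with Nrp1 high libraries left of the vertical line and role classes separated by horizontal lines. Nrp1 low replicate 1 is the highest library in 29 members and the lowest in 7, which are Lamp2, Scarb2, Npc1, Manba, Atp6v0a1, Atp6v0d1 and Atp6v1a.

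The cathepsins and related peptidases had 11 tested genes, all with a log2 fold change below 0 (median -0.40, range -0.69 to -0.18) and none called. CPM values are compared here between libraries for 1 gene and not between genes, since they are not corrected for transcript length. Ctse, an aspartic protease of endosomes, stood at 58.9, 72.4 and 49.8 CPM in Nrp1 high replicates 1, 2 and 3, against 108.4, 78.5 and 77.8 CPM in Nrp1 low. The 3 Nrp1 high libraries were below the 3 Nrp1 low libraries, with a log2 fold change of -0.55 ± 0.23, an unadjusted edgeR p of 0.0439 and an adjusted p of 0.440. Ctsd, the main aspartic protease of lysosomes, stood at 433.5, 418.9 and 439.8 CPM in Nrp1 high, against 591.8, 472.9 and 616.4 CPM in Nrp1 low. The fractions did not overlap, and Nrp1 high spread less (430.7 ± 10.7 CPM, against 560.3 ± 76.7 CPM in Nrp1 low, SD, n = 3 each); the log2 fold change was -0.38 ± 0.19, with an adjusted edgeR p of 0.447. Tpp1, a tripeptidyl peptidase, stood at 81.5, 106.4 and 88.9 CPM in Nrp1 high, against 138.2, 120.5 and 106.4 CPM in Nrp1 low. Its highest Nrp1 high library and its lowest Nrp1 low library were nearly equal, and the log2 fold change was -0.40 ± 0.20 (edgeR adjusted p 0.446).

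The cysteine cathepsins overlapped between the fractions. Ctsb, a broad cysteine protease, averaged 1246 ± 259 CPM in Nrp1 high, against 1773 ± 396 CPM in Nrp1 low (SD, n = 3 each), and Ctss, which trims the invariant chain of MHC class II, averaged 1123 ± 170 CPM in Nrp1 high, against 1514 ± 347 CPM in Nrp1 low. Ctsc, which activates granule serine proteases, stood at 974.2, 1893 and 1227 CPM in Nrp1 high replicates 1, 2 and 3, against 2231, 1334 and 1217 CPM in Nrp1 low. The replicates spread more widely than the fractions differed (1365 ± 475 CPM in Nrp1 high, against 1594 ± 555 CPM in Nrp1 low, SD, n = 3 each, log2 fold change -0.22 ± 0.33). Ctsc was picked outside the rule for named genes, after its values were seen. The remaining members of the class were Ctsa (-0.55), Ctsh (-0.25), Ctsl (-0.18), Ctsz (-0.21) and Lgmn, the asparaginyl endopeptidase (-0.69 ± 0.35), all log2 fold changes with edgeR adjusted p between 0.454 and 0.726. Ctsk, the collagen-degrading cathepsin of osteoclasts, had 15 counts in Nrp1 high replicate 2 and 0 in the other 5 libraries, and no fold is given. In the RefSeq annotation, with protein-coding genes alone counted, Ctsa overlaps Neurl2 and Pltp, Ctsb overlaps Fdft1, Ctsz overlaps Nelfcd, and among the genes described further on Npc1 overlaps Rmc1, Glb1 overlaps Tmppe, Hexa overlaps Tmem202, Asah1 overlaps Frg1 and Atp6v1b2 overlaps Slc18a1. Noncoding genes or pseudogenes overlap Ctss, Lamp2, Scarb2, Glb1, Manba, Smpd1, Atp6v0a1, Atp6v0b and Atp6v1e1. No strand was stated for the counting, so reads in these overlaps cannot be told apart. Without Nrp1 low replicate 1, 9 of the 11 peptidases lay below 0, with Ctsc and Ctsl above, and when library totals replaced TMM 10 of 11 did, with Ctsl above and a median of -0.21. With library totals the median over all tested genes was 0.20, against 0.01 with TMM, and this holds for the classes below too.

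The 6 membrane, cholesterol transport and channel genes were divided, 4 above and 2 below 0, and all 6 overlapped between the fractions. Npc1, which exports cholesterol from the lysosome together with Npc2, stood at 87.3, 56.6 and 79.1 CPM in Nrp1 high replicates 1, 2 and 3, against 23.5, 68.0 and 53.8 CPM in Nrp1 low. Nrp1 low replicate 1 was far below the other 5 libraries, and the log2 fold change of 0.62 ± 0.38 had an edgeR adjusted p of 0.485. Npc2 averaged 538.7 ± 82.5 CPM in the Nrp1 high libraries and 507.5 ± 32.4 CPM in Nrp1 low (SD, n = 3 each). Lamp1 and Lamp2 are the abundant glycoproteins that line the lysosomal membrane. Lamp1 stood at 985.0, 1324 and 1163 CPM in Nrp1 high, against 1541, 1171 and 1308 CPM in Nrp1 low (log2 fold change -0.21 ± 0.21). Lamp2 stood at 248.2, 264.5 and 283.3 CPM in Nrp1 high, against 207.8, 260.7 and 214.8 CPM in Nrp1 low (log2 fold change 0.22 ± 0.18). The pair therefore had log2 fold changes of opposite sign, each about 1 SE from 0. Scarb2, the receptor that carries glucocerebrosidase to lysosomes, differed least of the class (0.08 ± 0.17), and Mcoln1, a lysosomal calcium channel, had -0.27 ± 0.36.

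Among the 9 glycosidases, 3 lay above and 6 below 0, and Neu1 lay farthest from 0 of all 43 members. Neu1 is the lysosomal sialidase, which removes terminal sialic acids from glycoproteins and glycolipids and is held stable in a complex with Ctsa and Glb1. It stood at 57.8, 49.7 and 51.8 CPM in Nrp1 high replicates 1, 2 and 3, against 124.3, 92.2 and 116.9 CPM in Nrp1 low. Every Nrp1 high library was well below every Nrp1 low library, and the spread within Nrp1 high was small (53.1 ± 4.18 CPM, against 111.1 ± 16.8 CPM in Nrp1 low, SD, n = 3 each). The log2 fold change was -1.07 ± 0.20, with an unadjusted edgeR p of 0.000576 and an adjusted p of 0.0657, which misses the threshold. DESeq2 gave an adjusted p of 0.000626 and limma-voom 0.0604, and over the other normalizations, filters, the replicate block and libraries left out the adjusted p lay between 0.0576 and 0.527. The partners of Neu1 in its complex had smaller log2 fold changes, Ctsa -0.55 ± 0.29 and Glb1, the lysosomal beta-galactosidase, -0.05 ± 0.26.

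Hexa, the alpha subunit of beta-hexosaminidase, stood at 288.7, 401.5 and 322.8 CPM in Nrp1 high, against 544.5, 375.6 and 471.5 CPM in Nrp1 low. Nrp1 high replicate 2 reached into the Nrp1 low range (log2 fold change -0.46 ± 0.22, edgeR adjusted p 0.446). Naglu, which degrades heparan sulfate, stood at 16.8, 25.4 and 17.2 CPM in Nrp1 high, against 26.3, 20.6 and 31.1 CPM in Nrp1 low, with overlap. Man2b1, the lysosomal alpha-mannosidase, averaged 514.8 ± 35.6 CPM in Nrp1 high, against 598.3 ± 35.0 CPM in Nrp1 low (SD, n = 3 each), a small gap without overlap (-0.22 ± 0.18). Gusb, the beta-glucuronidase, had -0.28 ± 0.22. Above 0 were Manba, the beta-mannosidase (0.34 ± 0.27), Gla, the alpha-galactosidase (0.29 ± 0.30), and Gaa, the acid alpha-glucosidase (0.05 ± 0.23).

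The 4 lipid genes lay below 0 with a median of -0.26, and all overlapped. The median was -0.12 without Nrp1 low replicate 1, -0.13 without Nrp1 high replicate 1, -0.45 without Nrp1 high replicate 2 and -0.07 with library totals in place of TMM. Psap, the precursor of the saposins that present sphingolipids to their hydrolases, stood at 2819, 4063 and 2657 CPM in Nrp1 high replicates 1, 2 and 3, against 5240, 2833 and 3396 CPM in Nrp1 low. Its highest value was in Nrp1 low replicate 1 and its second highest in Nrp1 high replicate 2, and the log2 fold change of -0.27 ± 0.30 became 0.029 without Nrp1 low replicate 1. Asah1, the acid ceramidase, stood at 197.3, 295.8 and 232.6 CPM in Nrp1 high, against 424.8, 300.9 and 275.1 CPM in Nrp1 low (log2 fold change -0.46 ± 0.24, edgeR adjusted p 0.458). Smpd1, the acid sphingomyelinase, stood at 17.7, 30.2 and 25.5 CPM in Nrp1 high, against 32.4, 28.8 and 26.3 CPM in Nrp1 low (-0.25 ± 0.27). Lipa, the acid lipase that frees cholesterol from its esters, had -0.14 ± 0.19, which turned above 0 when library totals replaced TMM. That change also moved the median over all tested genes to 0.20.

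**Figure D4:**
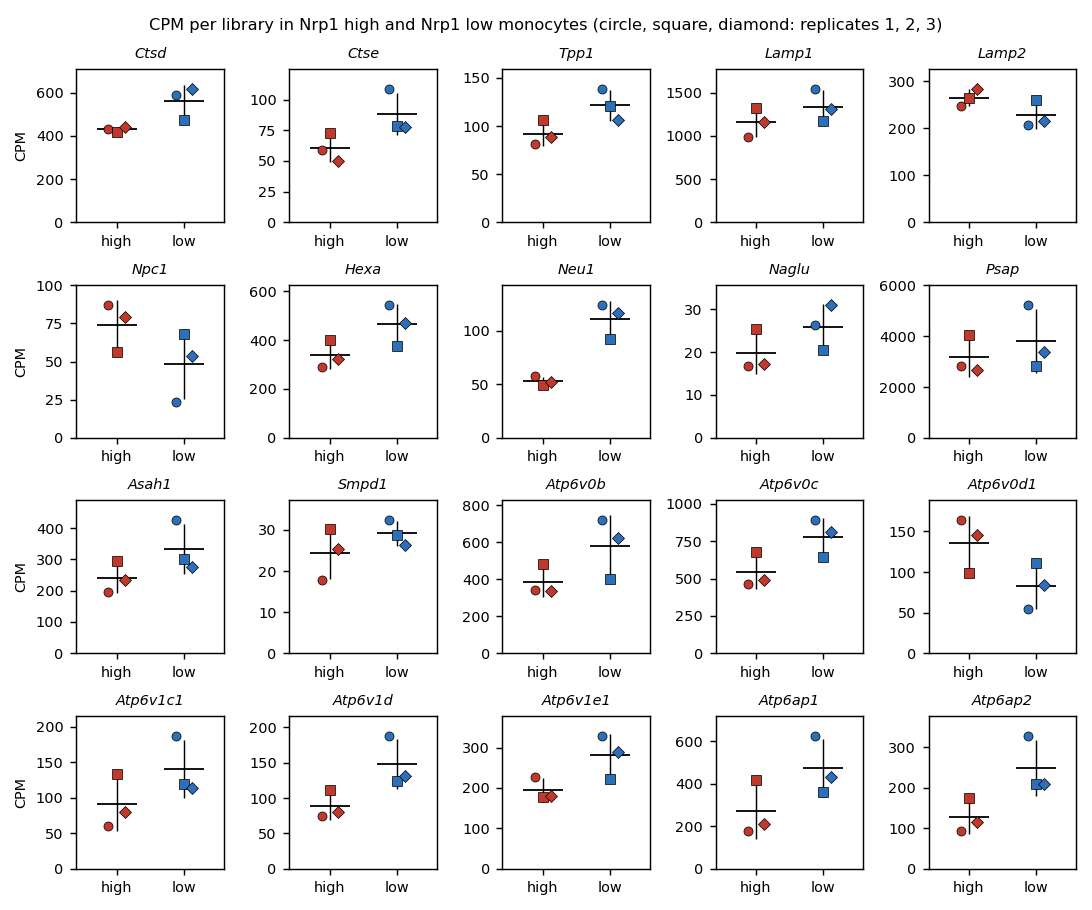
CPM of the 20 named members in each RNA library, with Nrp1 high on the left of each panel and Nrp1 low on the right; circles, squares and diamonds are replicates 1, 2 and 3, and black bars are the mean ± SD of 3 libraries. Neu1 shows the widest gap between the fractions, with 49.7 to 57.8 CPM in Nrp1 high against 92.2 to 124.3 CPM in Nrp1 low.

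The proton pump genes had log2 fold changes on both sides of 0, and none was called. In the membrane sector V0, Atp6v0d1, the ubiquitous d subunit that joins V0 to the central stalk, stood at 163.8, 98.4 and 145.2 CPM in Nrp1 high replicates 1, 2 and 3, against 54.0, 111.1 and 84.0 CPM in Nrp1 low. Nrp1 high replicate 2 lay within the Nrp1 low range, and the log2 fold change of 0.71 ± 0.31 had an unadjusted edgeR p of 0.0484 and an adjusted p of 0.442. Atp6v0a1, an isoform of the a subunit that forms the proton path, stood at 34.5, 30.0 and 31.2 CPM in Nrp1 high, against 16.3, 28.2 and 21.9 CPM in Nrp1 low. This was the 1 member with every Nrp1 high library above every Nrp1 low library (0.53 ± 0.26, edgeR adjusted p 0.449), and it was picked for that, after its values were seen. The genes of the proteolipid ring lay on the other side of 0. Atp6v0c stood at 467.1, 680.0 and 488.1 CPM in Nrp1 high, against 891.2, 644.1 and 811.4 CPM in Nrp1 low (-0.52 ± 0.23), and Atp6v0b at 342.5, 481.4 and 337.7 CPM in Nrp1 high, against 719.9, 400.8 and 624.9 CPM in Nrp1 low (-0.59 ± 0.27). In both, Nrp1 high replicate 2 lay above Nrp1 low replicate 2. Atp6v0d2, the d isoform of osteoclasts and macrophages, had 11, 14 and 0 counts in Nrp1 high replicates 1, 2 and 3 and 0 in all 3 Nrp1 low libraries, under the filter on low counts, and no fold is given.

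In the cytosolic sector V1, 6 of 7 subunits lay below 0 and none was called. Their median was -0.53, and it was -0.35 without Nrp1 low replicate 1 and -0.32 with library totals in place of TMM (all tested genes 0.20). Atp6v1d, a subunit of the rotating central stalk, stood at 74.2, 111.5 and 79.7 CPM in Nrp1 high, against 188.3, 124.3 and 130.6 CPM in Nrp1 low. The fractions did not overlap (-0.74 ± 0.25, unadjusted edgeR p 0.0173, adjusted p 0.374). Atp6v1e1, of the peripheral stalks, stood at 227.9, 176.4 and 179.3 CPM in Nrp1 high, against 329.3, 222.5 and 289.2 CPM in Nrp1 low. Only Nrp1 high replicate 1 reached above the lowest Nrp1 low library (-0.53 ± 0.22, unadjusted edgeR p 0.0402, adjusted p 0.434). Atp6v1c1, which joins the stalks to V0, stood at 59.7, 133.0 and 80.1 CPM in Nrp1 high, against 187.1, 118.5 and 114.2 CPM in Nrp1 low, with overlap through Nrp1 high replicate 2 (-0.62 ± 0.33). The other subunits below 0 were Atp6v1b2, of the catalytic ring (-0.56 ± 0.30), Atp6v1f, of the central stalk (-0.41 ± 0.23), and the regulatory subunit Atp6v1h (-0.30 ± 0.20). Atp6v1a, the catalytic subunit that pairs with Atp6v1b2 in the ring, lay above 0, with 183.8 ± 29.3 CPM in the Nrp1 high libraries against 139.6 ± 38.1 CPM in the Nrp1 low ones (SD, n = 3 each, 0.40 ± 0.25, edgeR adjusted p 0.491).

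The 2 accessory proteins, which act in assembly of the pump, had the next largest log2 fold changes after Neu1. Atp6ap2, also known as the prorenin receptor, stood at 93.9, 175.6 and 114.3 CPM in Nrp1 high replicates 1, 2 and 3, against 328.0, 209.9 and 208.8 CPM in Nrp1 low. The fractions did not overlap (-0.96 ± 0.29, unadjusted edgeR p 0.0113, adjusted p 0.322, DESeq2 adjusted p 0.0928). Atp6ap1, also known as Ac45, stood at 179.6, 418.1 and 210.0 CPM in Nrp1 high, against 625.5, 362.9 and 431.3 CPM in Nrp1 low. Here Nrp1 high replicate 2 lay above Nrp1 low replicate 2 (-0.81 ± 0.36, edgeR adjusted p 0.445). Without Nrp1 low replicate 1, both stayed below 0, with a median of -0.64 against -0.89 with all libraries.

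The 6 members with the palindrome in their promoter were evenly divided in RNA, with log2 fold changes of -0.55 for Ctsa, -0.38 for Ctsd, -0.27 for Mcoln1, 0.29 for Gla, 0.40 for Atp6v1a and 0.71 for Atp6v0d1, and none was called. Of the 13 members with the core CACGTG, these 6 included, 9 lay below and 4 above 0 (median -0.21). Of the 23 with a window but no core, 17 lay below and 5 above 0 (median -0.27), and Ctsk was untested. The factors known to bind the palindrome did not pass the test either. Tfeb stood at 73.8, 101.6 and 82.0 CPM in Nrp1 high, against 100.7, 77.3 and 82.8 CPM in Nrp1 low (-0.02 ± 0.21). Tfe3 stood at 84.3, 52.4 and 70.0 CPM in Nrp1 high, against 30.0, 55.5 and 49.5 CPM in Nrp1 low (0.61 ± 0.29, edgeR adjusted p 0.446), with overlap. Tfeb is given for its known role and was picked outside the rule for named genes.

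A further 93 genes of the lysosomal system, outside the members, were in the table, and 90 were tested. They included 5 cytosolic and secreted protease inhibitors. Of these 90, 34 lay above and 56 (62.2%) below 0, against 49.4% of all tested genes below 0, and the median was -0.18. EdgeR called 4 lower and none higher, against 0.676% and 0.00643% of all tested genes. Of the 4, 2 were among the 5 protease inhibitors. Another was among 8 other peptidases, and the last among 25 other membrane and transport proteins. No call fell among the transcription factors, the sorting genes, the other hydrolases or the other V-ATPase subunits. All 3 Nrp1 high libraries lay below all 3 Nrp1 low libraries in 18 (20%) and above in 6 (6.67%), against 10.8% and 9.51% of all tested genes. The 4 called genes were Cd63, a tetraspanin of late endosomes and azurophil granules (53.7, 70.2 and 46.6 CPM in Nrp1 high, against 462.8, 280.5 and 391.8 CPM in Nrp1 low, -2.73 ± 0.27, edgeR adjusted p 0.0046), the protease inhibitors Serpinb1a (-2.26, adjusted p 0.0072) and Cst7 (-1.99, adjusted p 0.0156), and Ctsg, the cathepsin G of neutrophil granules (-1.39, adjusted p 0.0289). In these 4 the fractions did not overlap, and 1 of them, Ctsg, is also among the primary granule markers that were lower in Nrp1 high. The other genes among the 2 of lowest p in each list were not called by edgeR, and DESeq2 called 1 of them, Rogdi. Rogdi, counted with the V-ATPase regulators, had -1.38 ± 0.34 (edgeR adjusted p 0.197, DESeq2 adjusted p 0.0074), Ncoa7, which binds the pump, 0.90 ± 0.39, and Laptm4b, a lysosomal membrane protein, -1.75 ± 0.67. In enzyme sorting, Gnptab, which makes the mannose 6-phosphate tag, had 1.00 ± 0.42 and the adaptor Gga2 -0.50 ± 0.19. Among the remaining enzymes and regulators, Pla2g15 had -0.52, Ppt1 -0.45, Prcp 0.48 and Flcn -0.25.

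Accessible regions were described from the authors' deposited table alone, which gives a log2 fold, a p-value and a false discovery rate (FDR) per region and no value per library. The direction of the fold rests on the name of the comparison, high against low, and no column states it. In the authors' deposited table, Nrp1 itself had 3 called regions with log2 folds of 1.47, 1.50 and -0.39, while the 188 regions of genes called lower in Nrp1 high RNA included 20 with a called positive fold and 3 with a called negative one. Folds are therefore given below as positive or negative, as deposited, and not as more or less open. The members had between 1 and 10 regions each, the most in Ctsc, and 63 of the 113 lay within 3000 bases of a transcript start by the authors' annotation, 30 were distal intergenic, 17 intronic and 3 in exons or a UTR. Of the 113 regions, 40 had a positive and 73 a negative fold, with a median of -0.07, against -0.09 over all 40796 regions.

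At an FDR under 0.05, 2 member regions had a positive and 4 a negative fold in the authors' deposited table, against 2.56% and 4.99% of all regions. Both signs occurred at Atp6v0d2, which was untested in RNA. Its region at chr4:19913966-19914365, 2575 bases from the transcript start, had 1.90 (FDR 3.6e-05), and its region at chr4:19879626-19880025, in exon 7 of 8, had -1.34 (FDR 0.0237). Scarb2 had 1.17 at chr5:92486666-92487065 in intron 1 of 11 (FDR 0.0164), while its RNA differed by 0.08 on the log2 scale. Ctse had -1.04 at chr1:131671113-131671512 in intron 7 of 9 (FDR 0.000558), and Ctsa -0.73 at chr2:164834350-164834749, within 1 kb of a transcript start (FDR 0.0145). Lipa had -0.71 at chr19:34521463-34521862 in intron 3 of 9 (FDR 0.0399). These are log2 folds of the authors' deposited table on GRCm38, and 4 of the 6 regions lay outside the promoter class.

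Elsewhere no member region was called in the authors' deposited table. At an FDR between 0.05 and 0.1 lay 2 regions of Ctsh at annotated transcript starts (-0.51, FDR 0.0501, and -0.37, FDR 0.0551). So did distal regions of Ctsc (-0.47, FDR 0.0679, and -0.48, FDR 0.0882) and Ctss (0.47, FDR 0.0704), and an intronic one of Atp6v0d2 (0.32, FDR 0.0843). The regions that completed 2 per class lay at annotated transcript starts of Npc2 (-0.72, FDR 0.107), Gla (0.28, FDR 0.111), Glb1 (-0.19, FDR 0.235), Atp6v1f (0.24, FDR 0.223), Atp6v1a (0.19, FDR 0.237), Atp6ap2 (-0.27, FDR 0.189) and Atp6ap1 (-0.12, FDR 0.695), with a distal one of Psap (-0.39, FDR 0.109). The Npc2 region, chr12:84762477-84762876, lay inside the gene, which RefSeq places at chr12:84754559-84773112 on the minus strand. Neu1, the member farthest from 0 in RNA, had 2 regions in the authors' deposited table, with log2 folds of -0.13 at its start (FDR 0.626) and 0.15 at a distal site (FDR 0.707). None of the 9 regions of the V1 subunits, the 3 of the accessory proteins or the 15 of the glycosidases was called, against 7.55% of all regions. The values of Neu1 are given for its RNA. They and the uncalled regions at an FDR under 0.1 were picked outside the rule for regions.

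**Figure D5:**
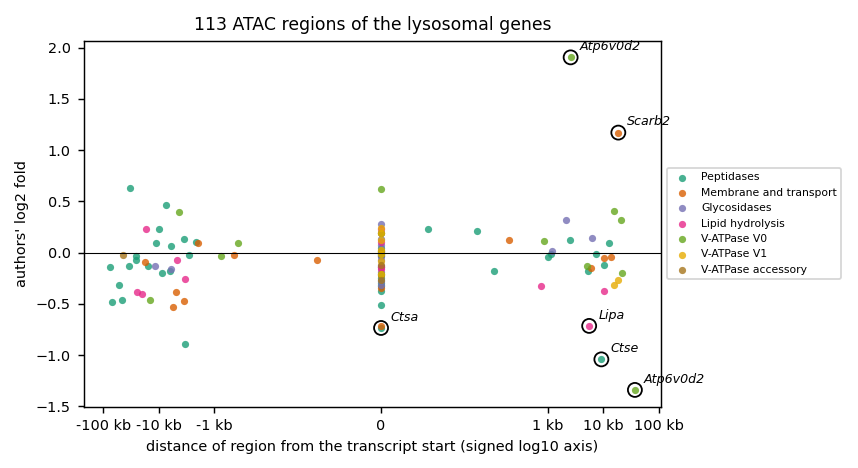
The authors' deposited log2 fold of the 113 member regions against the distance from the transcript start (signed log10 axis), coloured by role class; circled points are the 6 regions called at an FDR under 0.05. The 2 called positive regions reach 1.17 and 1.90, the 4 called negative ones lie between -1.34 and -0.71, and both signs occur at Atp6v0d2.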

How the data were processed

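RNA-seq gave 6 libraries and ATAC-seq 10, of which each sample's group and replicate number were taken from the titles. A template-switching kit for low input was used for RNA, and reads were paired, 150 bases long, per the labels' protocols. The authors deposited estimated counts per gene, which are whole numbers, so rounding changed nothing. The submitters' processing notes name GRCm38, HISAT2 and StringTie for the series, without versions. For ATAC the authors deposited their own comparison, with the log2 fold, p-value and FDR of each region and its distance to a transcript start. BWA, MACS2, DiffBind, edgeR, DESeq2 and ChIPseeker are also in the submitters' processing notes, and the labels name a DESeq2 table where the deposited one is named for edgeR. Depth of the ATAC libraries is unknown, and a shift of reads for the transposase is not stated. Counts from StringTie derive from coverage, and the error from counting can exceed what they state.

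After filterByExpr and TMM scaling, edgeR 4.0.16 (R 4.3.3) was used for a robust quasi-likelihood test with only the group in the model, with Benjamini-Hochberg adjustment over all 15541 genes and calls under 0.05. Log2 fold changes run as Nrp1 high minus low. CPM use TMM-scaled library sizes. The script was tested on simulated data. Genes named with full values were members with an unadjusted p under 0.05, the 3 of lowest p in each role class and untested members, and the text says where others were picked. Ctsb, Ctss, Npc2, Man2b1 and Atp6v1a also fell outside this rule and are given as means with SD. Of regions, the called ones and the 2 of lowest FDR per class were named, and of other lysosomal genes the called ones and the 2 of lowest p per list. The members and the lists were chosen with earlier results of these data known. Each value was recomputed with DESeq2 1.42.0, limma-voom (limma 3.58.1), scaling by RLE, upper quartiles or library totals, changed filters and thresholds, a block for the replicate number, and leaving out each RNA library. Promoter windows and gene positions are from RefSeq (GRCm38.p6).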

Additional observations from a re-analysis of the deposited data

How the results depend on the processing

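No member was called by edgeR under RLE, upper-quartile or library-total scaling, limma-voom, either other filter, the replicate block or any library left out. The count of members called lower was 1 with DESeq2 and 1 at an adjusted p under 0.1, Neu1 in both. Leaving out single RNA libraries gave 0 to 0 members called higher, 0 to 0 called lower, and a median of -0.43 to -0.18. With library totals the median of all genes shifted by 0.19 on the log2 scale, the members' median was -0.09, and 30 of 43 lay below 0. Of 280 values of 20 named members under 14 settings, 278 kept their direction and side of the threshold, Neu1 passed it with DESeq2 (-1.05), and Psap (-0.27) had -0.47 to 0.029 when single libraries were left out, reversed only without Nrp1 low replicate 1. The cause was not tested. Deviations from the fraction means had same-number correlations of -0.24, -0.24 and 0.02, against -0.16 to 0.32 between different numbers. Centring within 3 libraries ties these values to each other. They cannot tell whether libraries of the same number share animals. With the replicate block 0 genes were called, against 106 without it, the members' median was -0.28 and Neu1 had an adjusted p of 0.527. All-gene calls were 0 without Nrp1 high replicate 3 and 28 without Nrp1 high replicate 1, against 403 with DESeq2. Member regions with a positive fold numbered 1 at FDR under 0.01, 4 at FDR under 0.1 and 1 within 3000 bases of a transcript start. Those with a negative fold numbered 1, 8 and 1 under the same settings, by construction of the thresholds. Without the filter on low counts all 45 members were tested, Ctsk and Atp6v0d2 included, and none was called.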
